A study of Mus musculus with 4 samples.

Results

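The genes described here are 9 genes of the 2-cell state other than *Zscan4* and *Tcstv*, namely *Zfp352*, *Tdpoz3*, *Tdpoz4*, *Usp17la*, *Usp17lc*, *Usp17ld*, *Usp17le*, *Tmem92* and *Arg2*. They were taken by exact symbol from the 53379 gene identifiers of the files, and each symbol matched a gene. RNA came from DKO741, a *Terc*-/- mouse embryonic stem cell (mESC) line derived from E14 cells, in which the TR-10 construct was targeted to both alleles of the gene for the telomerase RNA. Pre-ALT cells at population doubling 100 (PD100) were compared with post-ALT cells at population doubling 800 (PD800), with 2 libraries each; ALT is the maintenance of telomeres without telomerase. Both groups carry the knock-out and had the neo marker of the first allele removed with Cre, and mouse embryonic fibroblasts served as feeders in maintenance while feeder-free cells were used for extraction. Since all libraries come from 1 line, the number of doublings, time in culture and the ALT state cannot be told apart, and p-values measure the spread between these libraries. The study's methods call the libraries of a group biological duplicates, without saying whether they were grown as separate cultures. The labels also give the 100 and 800 as passages.

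The 2-cell state is named after the stage at which the mouse embryo starts to transcribe its own genome. A small share of mESCs in culture passes through a similar state for a short time, in which the transcription factor DUX turns on a set of genes and the endogenous retrovirus MERVL. *Zfp352* encodes a zinc finger protein, and *Tdpoz3* and *Tdpoz4* encode proteins with a MATH and a BTB/POZ domain, related to SPOP, the substrate adaptor of cullin 3 ubiquitin ligases. The *Usp17l* genes encode deubiquitinating enzymes of the USP17 family, *Tmem92* encodes a membrane protein, and *Arg2* encodes the mitochondrial arginase, which splits arginine into ornithine and urea and is used well outside the 2-cell state. In bulk RNA, fewer cells in this state and less RNA per cell in it cannot be told apart.

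The genes lie at 6 places of the GRCm38 assembly (mm10), with the gene models of GENCODE M21. *Zfp352* is a gene of 2 exons at chr4:90218820-90225702 on the plus strand. *Tdpoz4* (chr3:93796398-93797510) and *Tdpoz3* (chr3:93826020-93827117) are genes of 1 exon close to each other on the plus strand. The *Usp17l* genes sit on chromosome 7 in pairs, with *Usp17ld* (chr7:103249737-103252505, minus strand) near *Usp17lc* (chr7:103415072-103419880, plus strand), and *Usp17le* (chr7:104768049-104777470, minus strand) near *Usp17la* (chr7:104857009-104862667, plus strand). *Tmem92* is at chr11:94777217-94782703 on the minus strand with 5 exons in its longest coding transcript. *Arg2* is at chr12:79130777-79156301 on the plus strand with 8 exons.

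How far the paralogs can be told apart decides which counts can be read gene by gene, so the starts of the coding sequences of the *Tdpoz* genes are shown first. The first 60 coding bases on the plus strand, chr3:93826020-93826079 for *Tdpoz3* and chr3:93796398-93796457 for *Tdpoz4*, have capitals at the 13 positions at which the genes differ.
Tdpoz3: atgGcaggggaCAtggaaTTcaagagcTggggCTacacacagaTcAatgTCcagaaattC
Tdpoz4: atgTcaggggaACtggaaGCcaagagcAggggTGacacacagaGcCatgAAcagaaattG
Over the aligned coding sequences, *Tdpoz3* and *Tdpoz4* were identical at 82.09% of bases and shared no stretch of 100 bases.

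The *Usp17l* genes were closer to each other, with coding identities of 93.77% to 98.41% among the 4 genes and the highest value between *Usp17lc* and *Usp17ld*. Their upstream sequences are also near copies, as shown by 80 bases from RefSeq promoter windows (GRCm38.p6), 5′ to 3′ on the strand of the gene. The bases were cut around the letters in capitals, so that their distance from the start was not fixed. These are chr7:104856901-104856980 (plus strand) for *Usp17la*, chr7:104842604-104842683 (minus strand) for the paralog *Usp17lb*, chr7:103416539-103416618 (plus strand) for *Usp17lc* and chr7:103252605-103252684 (minus strand) for *Usp17ld*. RefSeq and GENCODE place some starts differently, so that the *Usp17lc* window lies inside the GENCODE gene. Capitals mark the letters TATAAA or those in their place. TATAAA is the sequence of the TATA box, the promoter element that positions transcription starts. Whether these letters act as one was not tested.
Usp17la: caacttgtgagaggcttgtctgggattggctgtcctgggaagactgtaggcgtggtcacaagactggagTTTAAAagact
Usp17lb: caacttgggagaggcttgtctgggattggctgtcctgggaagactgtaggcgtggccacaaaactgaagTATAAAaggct
Usp17lc: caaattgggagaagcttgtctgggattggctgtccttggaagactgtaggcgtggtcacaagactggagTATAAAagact
Usp17ld: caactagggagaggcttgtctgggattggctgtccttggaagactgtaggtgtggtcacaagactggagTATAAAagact
Of the 80 positions, 69 had the same base in all 4 genes, and pairs of genes differed at 4 to 7 positions. The letters TATAAA were present in *Usp17lb*, *Usp17lc* and *Usp17ld*, and *Usp17la* has TTTAAA in their place. Searched on both strands of promoter windows from 250 bases before to 50 after the start, TATAAA occurred in 13.6% of 32851 promoters, so that its presence is no rare feature.

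The window before *Zfp352* (chr4:90218570-90218819, plus strand, 250 bases ending at the start) consists largely of a short repeat that carries the letters TAATCC, shown in capitals. Homeodomain proteins of the OTX type are known to bind such letters.
Zfp352: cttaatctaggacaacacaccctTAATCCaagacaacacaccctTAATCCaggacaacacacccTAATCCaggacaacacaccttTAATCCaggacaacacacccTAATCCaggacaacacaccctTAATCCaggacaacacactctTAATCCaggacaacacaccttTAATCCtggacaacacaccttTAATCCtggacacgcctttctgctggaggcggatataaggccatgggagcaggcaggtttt
TAATCC stood there 9 times, not overlapping. At least 1 copy occurred in 7.06% of the 32851 promoters, and 5 or more copies occurred only in the *Zfp352* promoter. The TAATCC repeat and the TATA position were noticed on reading the sequences. The letters GATTNAATC, taken from the core of the sequence described for mouse DUX, were in 0.268% of promoters and in none of the 5 windows given for these genes. Promoter sequences of *Tdpoz3*, *Usp17le*, *Tmem92* and *Arg2* were not analysed here.

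**Figure D1:**
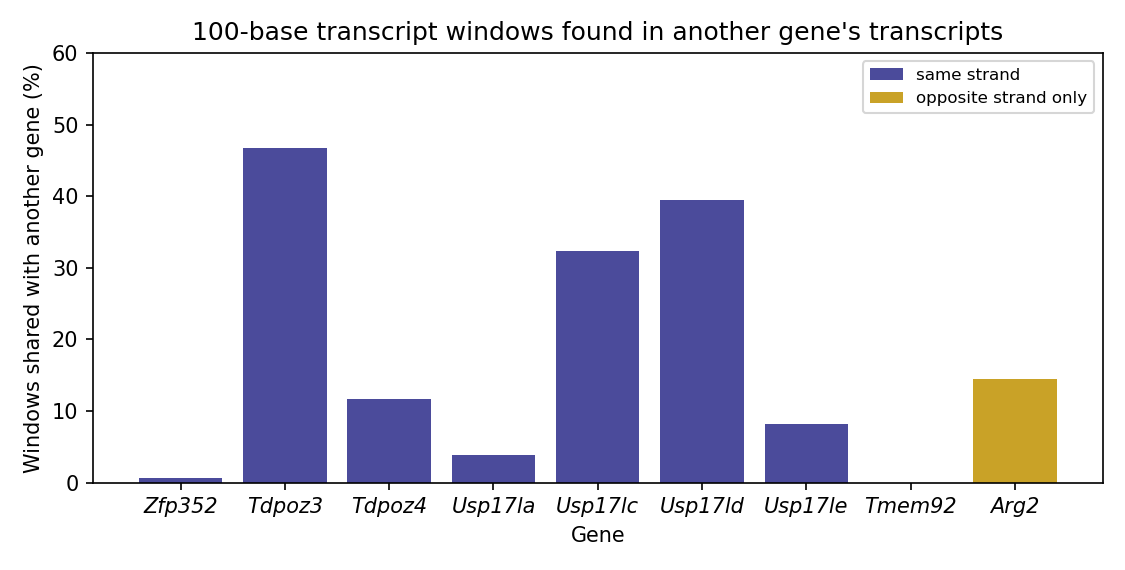
Share of all 100-base windows of a gene's GENCODE transcripts (vertical axis, percent) that also occur in transcripts of another gene, for each of the 9 genes (horizontal axis), on the same strand or only on the opposite strand. *Tdpoz3*, *Usp17ld* and *Usp17lc* share 46.75%, 39.46% and 32.34%, *Tmem92* shares none, and the 14.45% of *Arg2* are all on the opposite strand.

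The authors deposited expected counts from RSEM, the estimated number of reads from each gene, with a read that aligns to several genes divided between them. The plot of shared windows gives the part of each gene where such a division can occur. For *Tdpoz3* all shared windows were shared with *Gm4982*, which had 1.04 and 1.90 counts at PD100 and 0 in both PD800 libraries. For *Usp17lc* and *Usp17ld* they were shared with each other, *Usp17le* and *Usp17lb*, so that how their counts are split is uncertain and the sum is less so. *Usp17la* and *Usp17le* shared fewer windows, 3.83% and 8.22%. *Tmem92* and *Zfp352*, with 0.00% and 0.64% of windows shared, have counts that hardly depend on the division.

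Library totals were 32454121 to 38492149 expected counts, so that a floor of 3 counts was 0.0743 to 0.0933 CPM, counts scaled to the library total with TMM factors. *Terc* had 1 count in PD100 replicate 1 and 0 in the other libraries. All 10 markers of mESCs passed the expression filter, and summed to 2218 and 2510 CPM at PD100 and 4243 and 4322 CPM at PD800. Mitochondrial and small RNAs took 22.0% to 23.4% of counts at PD100 and 27.7% to 28.3% at PD800.

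**Figure D2:**
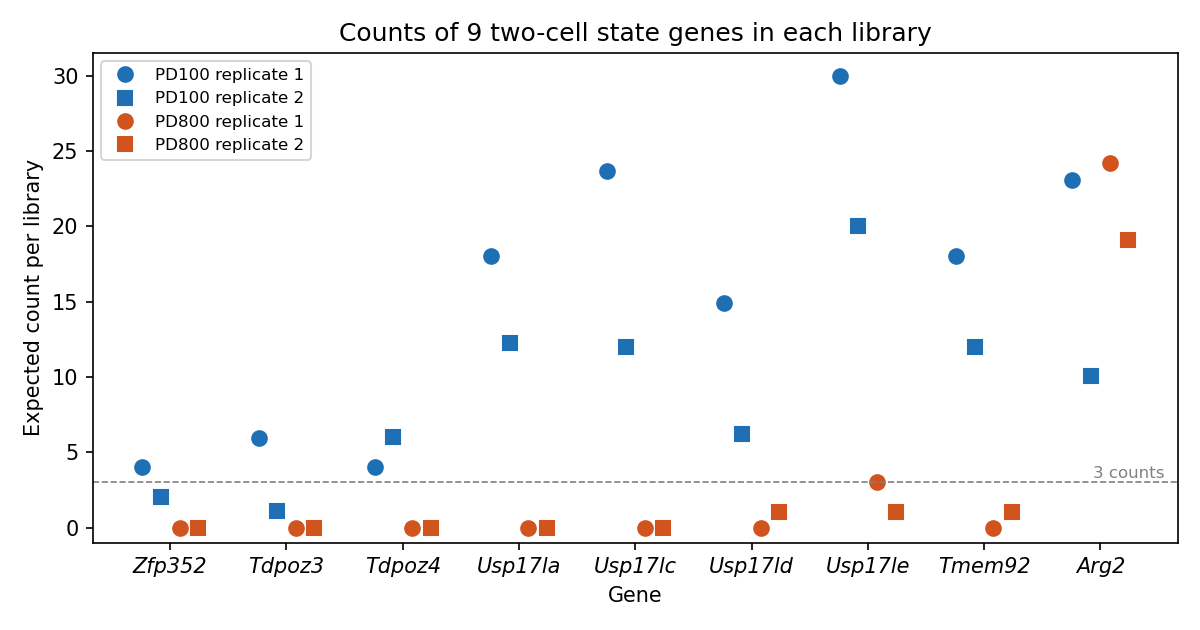
Expected counts (vertical axis, per library, not scaled for depth) of the 9 genes (horizontal axis) in the 4 libraries, with PD100 in blue, PD800 in orange, circles for replicate 1 and squares for replicate 2; the dashed line is at 3 counts. All PD800 points except those of *Arg2* lie at or below 3 counts.

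Summed over the 8 genes other than *Arg2*, a grouping made after the values were seen, the libraries held 118.6 and 71.5 counts at PD100 and 3.0 and 3.0 counts at PD800. The highest level of any of these 8 genes at PD800 was 3 counts, and 5 genes (*Zfp352*, *Tdpoz3*, *Tdpoz4*, *Usp17la* and *Usp17lc*) had 0 counts in both PD800 libraries. *Arg2* had 24.20 and 19.10 counts. In CPM, 8 of the 9 genes had both PD800 libraries below both PD100 libraries, as did 28.6% of the 32384 genes with a count. The counts at PD100 were themselves low, at no more than 30 per library. Among genes with 20 to 50 counts over both PD100 libraries, 6.43% of 3015 had at most 3 counts in each PD800 library, and 5 of the 6 genes described here did. Among genes with 6 to 20 counts, 31.1% of 4219 did, as did *Zfp352*, *Tdpoz3* and *Tdpoz4*, the 3 genes in that range; the limit of 20 was set after the values were seen.

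Single genes were tested with edgeR's quasi-likelihood test over 19148 genes, with an adjusted p (Benjamini-Hochberg) under 0.01 and a fold change over 2 required for a call. Of all genes tested, 8.81% were called lower at PD800 and 6.28% higher. Of the 9 genes, 5 passed the filter on low counts, and 4 of these (*Usp17la*, *Usp17lc*, *Usp17le* and *Tmem92*) were called lower and 0 higher. The filter keeps a gene through the group where it is high, so that the 4 called genes are not a sample of the 9. The median log2 fold change of the 5 tested genes was -4.49, or -2.42 with the genes at 0 in PD800 put at the bound that the floor gives, against 0.01 over all genes tested. Of all calls, 41.6% were in the higher direction, against 24.4% when log2(TPM + 1) was tested with limma and 23.1% for log2(TPM + 0.1), where TPM stands for the authors' values scaled for length and depth.

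**Figure D3:**
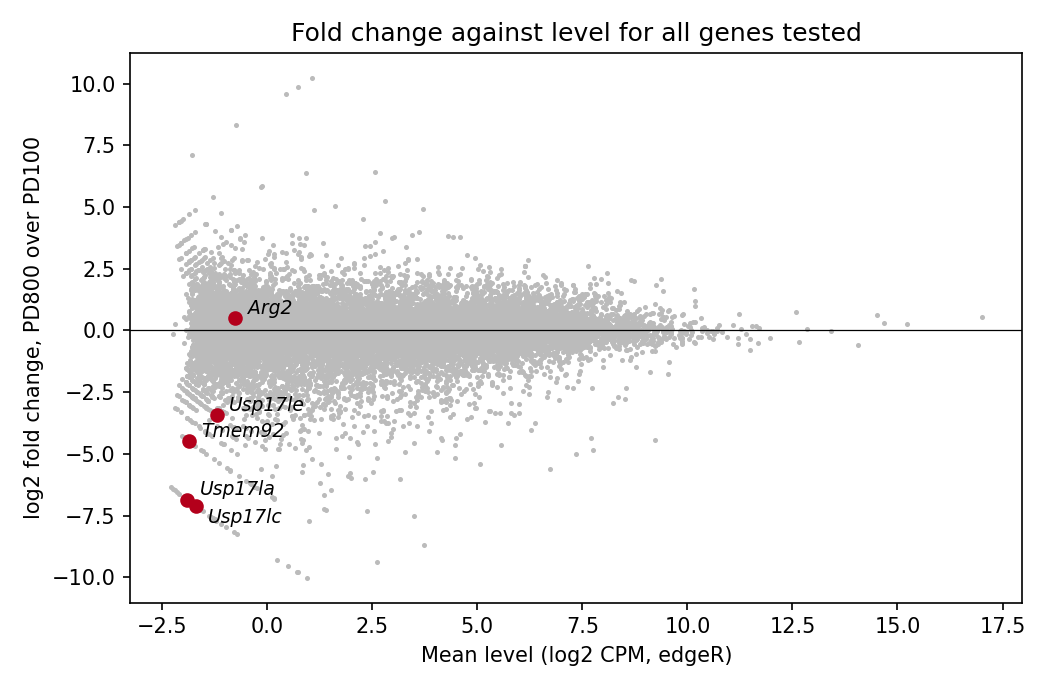
log2 fold change of PD800 over PD100 (vertical axis, edgeR) against mean level (horizontal axis, log2 CPM) for the 19148 tested genes in grey, with the 5 tested genes described here in red. All 5 lie toward the low end of the levels, *Usp17la*, *Usp17lc*, *Usp17le* and *Tmem92* below 0 and *Arg2* above 0.

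*Zfp352*, a zinc finger gene often used as a mark of the 2-cell state, had 4 and 2 counts in the PD100 replicates 1 and 2 and 0 counts in both PD800 libraries. The PD100 mean, 0.0794 ± 0.0277 CPM (SD, n = 2), is itself below the floor of PD800, so no fold is given and a difference was not detectable at this depth. *Zfp353-ps*, with which it shares a short stretch, had at most 1 count in any library.

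*Tdpoz3* had 5.96 and 1.10 counts at PD100 and 0 in both PD800 libraries. For *Tdpoz4* the PD100 counts were 4 and 6, and again both PD800 libraries were at 0. PD100 replicate 1 was the higher library for *Tdpoz3* and replicate 2 for *Tdpoz4*, and the groups did not overlap for either gene. Their sum, 9.96 and 7.10 counts against 0 and 0, was at least 2.60-fold lower at PD800, with 3 counts in each PD800 library as the floor. Neither the genes nor the sum passed the filter. Without a filter, the sum was called lower in the fit with summed rows (edgeR, adjusted p = 0.000596). In the single-gene fit without a filter, over 32384 genes, *Tdpoz4* (edgeR, adjusted p = 0.0239), *Tdpoz3* (adjusted p = 0.0946) and *Zfp352* (adjusted p = 0.139) were not called. The fits without a filter gave far smaller p-values for like fold changes. For *Usp17la* the adjusted p of edgeR was 2.65e-07 in place of 0.00408, with a larger SE (1.24 in place of 0.96). Their p-values thus cannot be set beside those of the filtered fits. The paralogs *Tdpoz1* and *Tdpoz2* had 0 counts in every library and *Tdpoz5* had 0.50 counts in a PD100 library.

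*Spop*, the widely used relative of the *Tdpoz* genes, was lower at PD800 with a log2 fold change of -1.07 ± 0.12 (SE; edgeR, adjusted p = 0.00115). Of the list of 7 SPOP-type genes, which holds *Spopl*, *Cul3*, *Rbx1* and 3 *Tdpoz* paralogs besides, 4 were tested and *Spop* was the only call. The median over the 4 was 0.12.

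*Usp17le* had the most counts of the *Usp17l* genes, with 30 and 20 at PD100 and 3 and 1 at PD800. It fell by 3.45 ± 0.51 on the log2 scale (SE; edgeR, adjusted p = 0.00281), and the ratio of scaled counts was 11.5 with a 95% interval of 4.24 to 44.0. This and the other ratio intervals are exact and cover counting error only. Both PD100 libraries were above both PD800 libraries, and *Usp17le* made up 34.6% and 39.7% of the summed *Usp17l* counts at PD100.

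*Usp17la* had 18 and 12.22 counts at PD100 and 0 in both PD800 libraries, at least 4.59-fold lower (edgeR, adjusted p = 0.00408). *Usp17lc* had 23.70 and 11.98 counts at PD100 and also 0 in both PD800 libraries, at least 5.35-fold lower (edgeR, adjusted p = 0.00497). *Usp17ld*, the nearest copy of *Usp17lc*, had 14.93 and 6.21 counts at PD100 and 0 and 1 at PD800, a ratio of 19.4 with a 95% interval of 3.12 to 802. It did not pass the filter, and was called lower only in the fit without one (edgeR, adjusted p = 0.000723), to which the same limit applies. For *Usp17la*, *Usp17lc*, *Usp17ld* and *Usp17le* alike, PD100 replicate 1 held more counts than replicate 2.

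Summed over the 4 genes, the *Usp17l* counts were 86.63 and 50.41 at PD100 and 3 and 2 at PD800, or 2.14 and 1.51 CPM against 0.0834 and 0.0622 CPM. The sum fell by 4.58 ± 0.42 on the log2 scale (SE; edgeR, adjusted p = 0.000501), and the ratio of scaled counts was 25.3 with a 95% interval of 10.6 to 79.1. The difference far exceeded the spread between PD100 libraries, of which replicate 1 was the higher. With the paralog *Usp17lb* and all other genes whose symbols start with *Usp17l*, 6 in all, the sums were 103 and 75 counts against 3 and 3. *Usp17lb* itself had 16.37 and 24.59 counts at PD100 and 0 at PD800, at least 6.46-fold lower (edgeR, adjusted p = 0.00569), and here PD100 replicate 2 was the higher library.

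*Tmem92* had 18 and 12 counts at PD100 and 0 and 1 at PD800. Its log2 fold change was -4.49 ± 0.78 (SE; edgeR, adjusted p = 0.00537), and the ratio of scaled counts was 27.7 with a 95% interval of 4.6 to 1130. As no 100-base window of *Tmem92* occurs in another gene, this value does not depend on how reads were divided between copies.

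The calls of single genes rest on few counts. Without PD800 replicate 1 the adjusted p of edgeR was 0.0105 for *Usp17la* and 0.0240 for *Tmem92*, and without PD800 replicate 2 it was 0.0128 for *Usp17le*, so that 2 and 3 of the 9 genes were called in these fits. The sizes moved as well. For *Usp17le* the log2 fold change was -4.29 without PD800 replicate 1 and -2.96 without replicate 2. For *Tmem92* it was -3.56 without PD800 replicate 1 and -6.90 without replicate 2, where the remaining PD800 library is at 0 and the fitted value is no bound. With DESeq2 *Tmem92* had an adjusted p of 0.0210, and when a fold over 2 was itself tested in edgeR none of the 4 genes was called (adjusted p of 0.0159 to 0.0257), whereas the *Usp17l* sum was (adjusted p = 0.00211).

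*Arg2* had 23.06 and 10.08 counts at PD100 and 24.20 and 19.10 at PD800, or 0.571 and 0.302 CPM against 0.673 and 0.594 CPM. The PD800 libraries were both higher in CPM, but PD100 replicate 1 was closer to them than to PD100 replicate 2. The log2 fold change was 0.51 ± 0.39 (SE; edgeR, adjusted p = 0.329), and the ratio of PD100 to PD800 was 0.708 with a 95% interval of 0.436 to 1.14. Without PD100 replicate 1 the log2 fold change of PD800 over PD100 was 1.07, and without PD100 replicate 2 this log2 fold change was 0.12, both from edgeR. The difference was thus within the spread between libraries. On counting error alone, the interval leaves out a fall of the size seen in the *Usp17l* sum. It covers neither the spread between libraries nor the division of reads with the overlapping gene *Vti1b*, so a fall of *Arg2* itself cannot be judged from it.

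The 3′ end of *Arg2* overlaps that of *Vti1b*, a SNARE gene on the opposite strand, which covers 285 of its 1428 exon bases. *Vti1b* had 1688 and 1582 counts at PD100 and 2501 and 2402 at PD800 (log2 fold change 0.69 ± 0.09 SE; edgeR, adjusted p = 0.00199, under the fold needed for a call). The strand setting of the counting is not given in the sources used here, and without strand reads of *Arg2* and *Vti1b* in the overlap cannot be told apart. Before rounding, the *Vti1b* counts were 1687.94 and 1581.92 at PD100 and 2500.80 and 2401.90 at PD800. In each library the decimals of *Arg2* and *Vti1b* add to a whole number, as when shared reads are divided between them. *Arg2* shares windows on the opposite strand only, so its low counts appear to depend on a division of reads counted without strand. Of the other arginase, *Arg1*, the libraries held 11 and 9 counts at PD100 and 6 and 4 at PD800, a ratio of 1.85 with a 95% interval of 0.825 to 4.42.

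The neighbours of *Arg2* also had mostly positive fold changes. The 40 tested genes nearest to it had a median log2 fold change of 0.69, with 9 called higher and 0 lower, where 6.28% of all genes tested were called higher. The 40 nearest to *Tmem92* had a median of -0.43, with 0 called higher and 5 lower, where 8.81% of all genes tested were called lower. For *Zfp352*, the *Tdpoz* genes and the *Usp17l* genes the medians lay between -0.02 and 0.10, with 0 to 5 of 40 called higher and 3 to 5 called lower. Whether the position of the genes bears on their values was not tested.

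Of 22 other genes of arginine and polyamine metabolism, 19 were tested, 3 called higher and 3 lower, with a median of -0.38. Those with the highest fold changes were *Pycr1*, which makes proline (log2 fold change 1.69 ± 0.15 SE), and *Nos1*, a nitric oxide synthase (1.33 ± 0.10 SE). The lowest were *Sat1*, which acetylates polyamines (-2.19 ± 0.08 SE), and *Nos3*, another nitric oxide synthase (-1.53 ± 0.27 SE). In edgeR, their adjusted p-values were 0.000439, 0.000232, 4.56e-05 and 0.00611 in that order.

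Compared per length, in TPM, the levels at PD100 ran from *Usp17le* (0.34 and 0.24 TPM) over *Arg2* (0.35 and 0.17), *Tmem92* (0.23 and 0.13), *Usp17lc* (0.20 and 0.14), *Usp17la* (0.14 and 0.10), *Usp17ld* (0.16 and 0.07), *Tdpoz4* (0.08 and 0.13) and *Tdpoz3* (0.12 and 0.02) to *Zfp352* (0.04 and 0.03). In this order the ranges of all neighbours overlapped or touched, so that no 2 neighbours differ beyond their spread. At PD800 *Arg2*, at 0.34 and 0.29 TPM, stood apart from the next gene, *Usp17le*, at 0.04 and 0.01 TPM.

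The genes with the most similar course over the 4 libraries were found by the Euclidean distance between log2 CPM values centred on the mean of each gene. For *Tmem92* they were *Osm* (0.0869) and *Ch25h* (0.183), for *Usp17le* they were *Osmr* (0.0688) and *Pmp22* (0.108), and for *Usp17la* they were *Gpr39* (0.0698) and *Lgals9* (0.109). *Usp17lc* was nearest to *Sprr2a2* (0.0789) and *Slco2b1* (0.0916), the *Usp17l* sum to *Arhgap6* (0.18) and *Nxf7* (0.189), and *Arg2* to *Scin* (0.0456) and *Rpl34* (0.0548). None of these names is another of the 9 genes. With 4 libraries and 19147 genes compared for each single gene (19143 for the sum), the distance is only a description.

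Other genes of the 2-cell state, from a list of 46 of which 44 were in the files, did not all move as these genes did. Of the 25 tested, 14 were called lower and 6 higher, with a median log2 fold change of -2.77, or -2.34 with genes at 0 in PD800 at their bound. The lowest fitted fold changes were those of *Gm12794*, at 36.91 and 16.08 counts at PD100 and 0 at PD800, at least 7.90-fold lower, and *Usp17lb*. As both were at 0 at PD800, their fitted values do not rank them below genes with more counts, such as *Zscan4f* (224.12 and 140.47 counts at PD100, 1.57 and 0 at PD800; log2 fold change -7.22 ± 0.53 SE), named after its values were seen. The highest were *Tcstv1*, with 5.08 and 4.53 counts at PD100 and 482.36 and 322.73 at PD800 (log2 fold change 6.40 ± 0.28 SE; edgeR, adjusted p = 6.16e-05), and *Gm21818*, with 1.19 and 1.72 counts against 142.58 and 108.38. The 5 *Zscan4* genes that were tested were called lower, as were the 4 of the 5 tested genes described here.

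**Figure D4:**
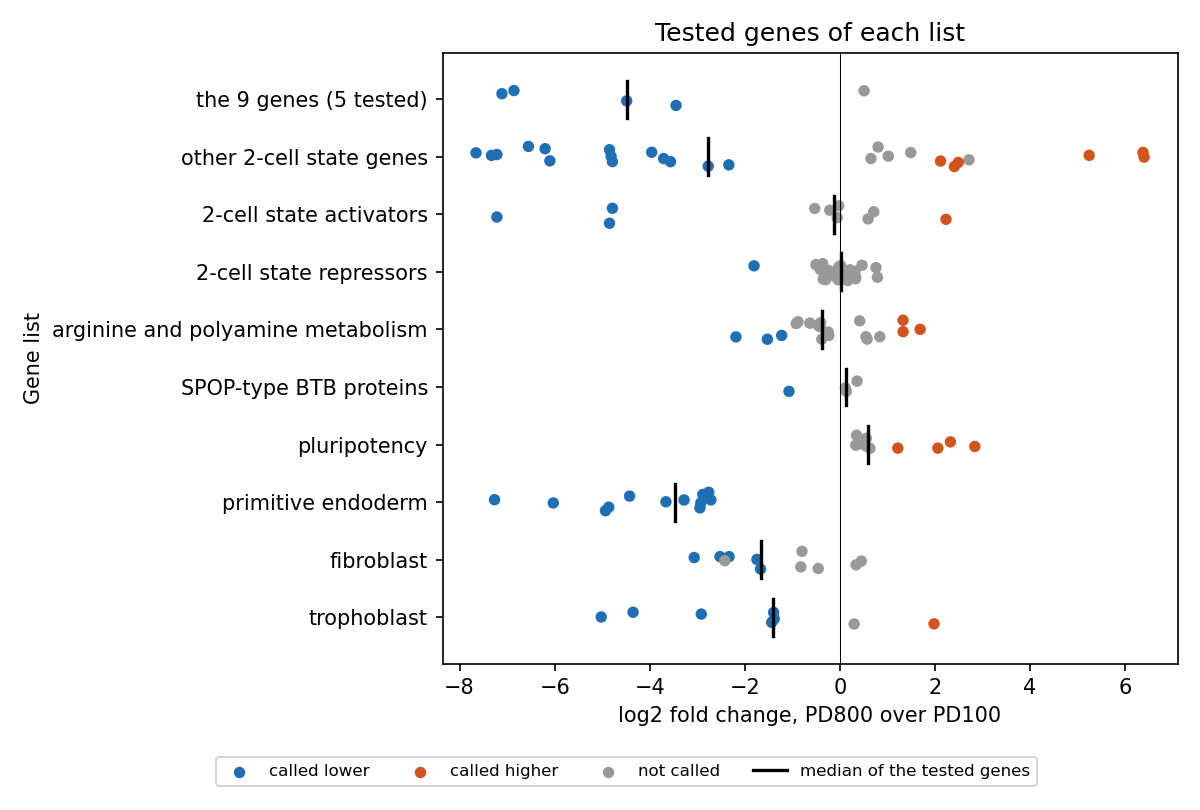
log2 fold change of PD800 over PD100 (horizontal axis, edgeR) of the tested genes of each list (vertical axis), coloured by call, with the median as a black line; points are spread vertically for visibility. The 12 primitive endoderm genes all lie below 0 and were called lower, the repressors have a median of 0.02 with *Myc* apart at -1.81, and the other 2-cell state genes split into 14 called lower and 6 called higher.

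Of the activators of the state, *Duxf3*, the gene of DUX, had 8.94 and 7 counts at PD100 and 0 in both PD800 libraries, at least 2.44-fold lower, and did not pass the filter. *Dppa2* and *Dppa4*, which act ahead of it, had log2 fold changes of 0.71 ± 0.19 (SE; edgeR, adjusted p = 0.0253) and -0.03 ± 0.09 (SE; edgeR, adjusted p = 0.842), and neither was called. In the list of 13 activators, 12 in the files and 10 tested, *Tbx3* was the only gene called higher (log2 fold change 2.23 ± 0.11 SE; edgeR, adjusted p = 7.18e-05), and 3 *Zscan4* genes, which the other list holds too, were called lower, with a median of -0.13. Of 26 repressors of the state, all tested, *Myc* was called lower (-1.81 ± 0.09 SE; edgeR, adjusted p = 7.99e-05) and 0 were called higher, with a median of 0.02. *Setdb1* and *Max* had log2 fold changes of 0.79 ± 0.07 (SE; edgeR, adjusted p = 0.000494) and 0.76 ± 0.07 (SE; edgeR, adjusted p = 0.000596), with small adjusted p-values but under the fold needed for a call. *Dppa2*, *Dppa4*, *Setdb1* and *Max* are outside the rule on named genes and were chosen after their values were seen.

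Markers of other cell types moved with the groups. All 12 primitive endoderm markers were called lower at PD800, with a median of -3.47 and a summed level of 3223 and 3645 CPM at PD100 against 323 and 334 CPM at PD800. Among them *Foxa2* (230 and 147 counts against 1 and 1) and *Sox17* (711.07 and 581 against 9 and 9) fell most. Of 9 trophoblast markers, 8 were tested, 6 called lower and 1 higher, with sums of 727 and 798 CPM against 74.2 and 73.8 CPM. *Krt8* and *Krt18* gave the most of the sum at PD100. At PD800 *Tfap2c*, which was not called, gave the most (mean of 30.0 CPM, with *Krt8* at 19.6 CPM). Of 12 fibroblast markers, which feeder cells would carry, 11 were tested, 5 called lower and 0 higher, with a median log2 fold change of -1.67. The called genes were *Col1a1* (526 and 815 counts against 70 and 81; -3.07 on the log2 scale), *Col3a1* (-2.52), *Col1a2* (-2.33), *Thy1* (-1.75) and *Prrx1* (-1.67). The summed fibroblast level, 557 and 575 CPM against 502 and 469 CPM, was mostly that of *Fn1* (means of 341 and 249 CPM at PD100 and PD800) and *Vim* (162 and 221 CPM), which were not called, and *Lum* had at most 1 count in any library. Of the 10 mESC markers, 4 were called higher (*Klf4* at 2.84 and *Nanog* at 2.32 on the log2 scale foremost) and 0 lower. The part of these cell types in the lower counts of the *Usp17l*, *Tdpoz*, *Zfp352* and *Tmem92* genes was not tested.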

How the data were processed

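Paired-end RNA reads of 4 libraries were, per the labels, aligned to mm10 with STAR 2.5.3a and quantified with RSEM 1.3.0. The authors deposited, per gene and library, expected counts, not scaled for depth, and TPM values, scaled for length and depth. The labels call the RNA total RNA and the study's text mRNA. The annotation release is not given in the sources used here. GENCODE M21 gave gene models and RefSeq gave promoters. Of the files' identifiers, 53274 were found in GENCODE M21 without regard to version.

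Expected counts were rounded and analysed with edgeR 4.0.16 in R 4.3.3 (filterByExpr with a minimum count of 10, TMM, quasi-likelihood test, Benjamini-Hochberg adjustment). The counts of the *Usp17l* genes, and of *Tdpoz3* and *Tdpoz4*, were also replaced by their sums before a second fit. The smallest p of an exact permutation test with 2 against 2 libraries is 0.333, so none was run. The procedure was tested on simulated data. The 9 genes and all lists were chosen with earlier results of these data known, so lists are described by counts and medians only. Besides the 9 genes, text names the called genes with the 2 highest and 2 lowest fold changes of a list, paralogs, and the 2 nearest genes by distance; others are named for their role, after their values were seen. Alternatives were DESeq2 1.42.0, limma 3.58.1, other scalings, filters and thresholds, unrounded counts, the replicate number as a block, and each library left out.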

Additional observations from a re-analysis of the deposited data

How the results depend on the processing

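Of 76 values of single genes under the alternatives, 76 kept their direction, 63 also kept their side of the threshold and 13 lost the call. The looser threshold and the fold tested in the model reuse the fold change of the main fit, so that their direction was fixed in advance. *Arg2*, with 16 of the values, was not called in the main fit and had no call to lose. The *Usp17l* sum was called under all alternatives that gave a value for it except limma on log2(TPM + 1), where its log2 fold change was -0.71 (adjusted p = 0.00643); the pseudocount is larger than its level of at most 0.84 TPM and shrinks the fold by construction. With each library left out in turn it lay between -4.83 and -4.28 (adjusted p of 2.99e-06 to 0.00142), and 2 to 4 of the 9 genes, 881 to 1514 genes overall in the higher and 1274 to 1893 in the lower direction were called. The number of the 9 genes called lower was 0 with the fold tested in the model, 0 with limma on log2(TPM + 1), 0 with at least 10 counts in every library, a filter that only *Arg2* passed, and 2 without PD800 replicate 1. Over all genes, testing the fold in the model gave 386 higher and 685 lower calls, limma on log2(TPM + 1) gave 297 and 920, and limma on log2(TPM + 0.1) gave 533 higher; the limma fits moved the median of all genes to -0.12 and -0.21.

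Deviations of same-numbered libraries from their group means had a correlation of 0.265, but with 2 pairs the numbers are not taken to pair the libraries. With the replicate block, the *Usp17l* sum was at -4.58, 4 of the 9 genes were called lower as before, and 1461 and 1956 genes were called overall. Depth limits *Zfp352*, *Tdpoz3* and *Tdpoz4*, whose PD100 counts of at most 6 per library lie near the floor.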
